A study of Mus musculus with 3 samples.

Results

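Histone lysine methyltransferases add methyl groups to lysines of the histone tails and histone lysine demethylases remove them. Their mRNAs were examined in the tdTomato+ neurons of the mouse hippocampus. The members were all protein-coding genes off the Y chromosome whose GENCODE vM21 symbol begins with Kmt or Kdm and a digit, or with Setd. The rule adds Ehmt1, Ehmt2, Suv39h1, Suv39h2, Ezh1, Ezh2, Nsd1, Nsd2, Nsd3, Dot1l and Ash1l. It returned 46 genes of the 52636 in the count table, of which 21883 are nuclear protein-coding genes. Of the 46, 29 are methyltransferases or carry the SET domain typical of them, and 17 are demethylases or carry the JmjC domain. The name of the family goes further than the known activity of a few members: 5 SET domain genes (Kmt2e, Setd3, Setd4, Setd5 and Setd6) and the JmjC gene Kdm8 have no established histone activity and were kept apart in the sums below.

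FACS RNA-Seq was performed in 3 biological replicates of a single condition, each with cells of 2 to 4 male mice at postnatal day 28 to 32. All mice were Camk2a-Cre +/-, Ai14 +/- on C57BL/6J, so that Cre, driven by the Camk2a promoter of excitatory neurons, switched on the tdTomato reporter. Hippocampi were dissociated whole, live tdTomato+ cells were sorted and poly(A) RNA was sequenced. The study describes the Cre of this line as restricted, in hippocampus, to CA1 pyramidal neurons. It also reports good correlation of the sorted-cell RNA with ribosome-bound RNA captured using the same line. The labels call the cells CA1 pyramidal neurons, but the sort rested on tdTomato alone, and no unsorted or Cre-negative sample was analysed here. There is thus no second group, and all results are levels within these cells and differences between genes of the same library.

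Methylation of H3K4, H3K36 and H3K79 marks active promoters, enhancers and transcribed genes, whereas H3K9 and H3K27 methylation marks heterochromatin and genes kept silent by Polycomb, and H4K20 methylation is linked to chromatin compaction and the cell cycle. The methyltransferases work in multi-subunit complexes, such as COMPASS for H3K4 and Polycomb repressive complex PRC2 for H3K27. In neurons, several of these enzymes, among them Ehmt1, Ehmt2, Kmt2a and Kdm5c, are known from work on learning and intellectual disability.

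The libraries held 48159841, 25686630 and 15833075 assigned counts in replicates 1, 2 and 3, a 3.04-fold range, and the members took 0.486%, 0.469% and 0.479% of them. Levels are given as TPM, a count per length scaled to the same total in each library, over nuclear protein-coding genes. Among the markers used to check the label, all 8 CA1 markers were detected, with a list median of 241.6 ± 8.08 TPM (SD, n = 3). All 4 dentate granule markers were detected as well, with a list median of 112.2 ± 12.3 TPM. List medians for other cells were lower, at 60.9 ± 11.7 TPM for oligodendrocytes and 16.1 ± 4.87 TPM for astrocytes. They were 10.01 ± 3.06 TPM for microglia, 2.69 ± 2.61 TPM for endothelial cells and 1.52 ± 0.90 TPM for interneurons. The oligodendrocyte median lay near that of the members, 53.8 ± 3.19 TPM. The highest oligodendrocyte marker, Mbp, had 368.5 ± 85.5 TPM, above the CA1 list median, and the highest astrocyte marker, Slc1a2, had 138.9 ± 40.5 TPM. Detected were 6 of 7 astrocyte, 8 of 8 oligodendrocyte, 5 of 5 microglial, 2 of 4 endothelial and 2 of 5 interneuron markers. The interneuron gene Slc32a1 had a count of 0 in 2 replicates. In a bulk sample, fewer cells of a type and less RNA per cell cannot be told apart, so a member's level is an average over these cells.

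Nearly the whole family was expressed. With detection set at a CPM (counts scaled to the same library total) of 1 or more in each replicate, 45 of the 46 members were detected, whereas 57% of all nuclear protein-coding genes passed. This covered 29 of 29 methyltransferases and SET domain genes and 16 of 17 demethylases and JmjC genes. The exception was Kdm4d, a JmjC demethylase of H3K9, with 24, 19 and 18 counts, or 0.498, 0.740 and 1.14 CPM, in replicates 1, 2 and 3. Only replicate 3, the shallowest library, lay above the threshold, and 18 counts carry a large counting error.

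The members lay above the middle of the expressed genes. Their median was 53.8 ± 3.19 TPM (52.2, 51.7 and 57.5 TPM in replicates 1, 2 and 3), against 37.5 ± 0.815 TPM for detected nuclear protein-coding genes. Ranked among those genes, the 45 detected members had a median percentile of 62.9 ± 1.32, with 29 above the 50th percentile, 10 above the 75th, 2 above the 90th and 5 below the 25th. The highest member was 33.3-fold above the lowest detected one, and 5 genes (Ehmt2, Kdm4b, Dot1l, Kmt2d and Kmt2a) held 29.6% of the summed TPM.

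**Figure D1:**
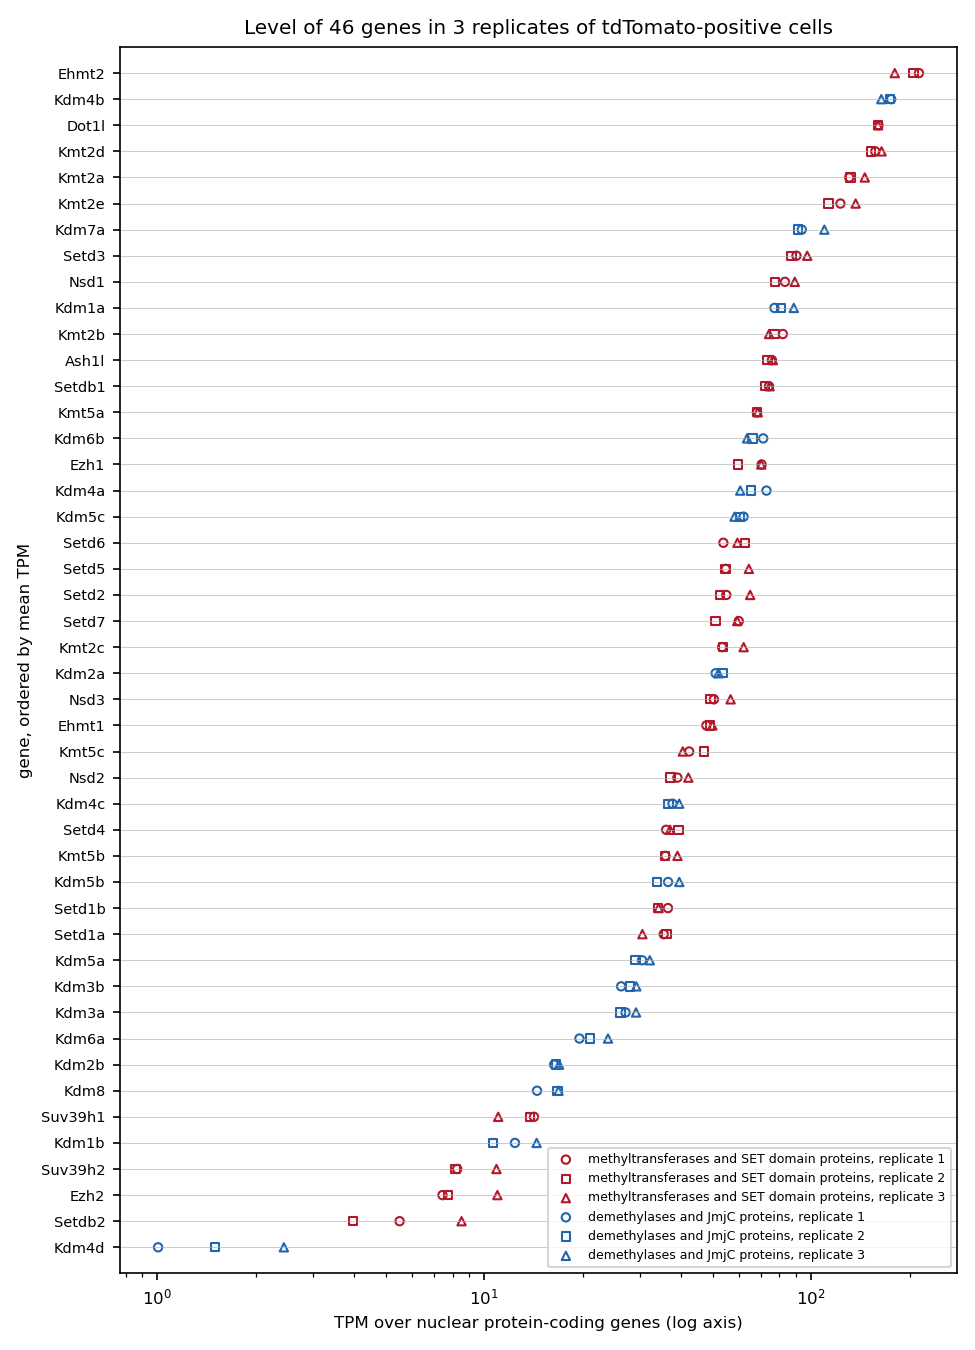
TPM over nuclear protein-coding genes (log axis) of the 46 genes in each of the 3 replicates, ordered by mean, with methyltransferases and SET domain genes in red and demethylases and JmjC genes in blue. Ehmt2 stands highest at 180.2 to 213.6 TPM, and Kdm4d lowest at 1.01 to 2.44 TPM; the points of 35 of the 45 pairs of neighbours overlap.

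Many neighbours in the order of the levels could not be separated. Of the 45 pairs of neighbours in the order, 10 had replicate values that did not overlap. These were Ehmt2 over Kdm4b, Kdm4b over Dot1l, Kmt2d over Kmt2a, Kmt2e over Kdm7a, Setdb1 over Kmt5a, Ehmt1 over Kmt5c, Kdm3a over Kdm6a, Kdm6a over Kdm2b, Kdm8 over Suv39h1 and Setdb2 over Kdm4d. Compared within each library, 11 further pairs kept their order in all 3 replicates although their ranges overlapped, among them Setd3 over Nsd1 (log2 difference 0.14 ± 0.03), Kdm1b over Suv39h2 (0.42 ± 0.10) and Ezh2 over Setdb2 (0.51 ± 0.27). The order of the other 24 pairs differed between replicates. Of the 10 pairs without overlap, 4 turned when the longest transcript was taken as the length in place of the merged exons. There Kdm4b had 141.4 TPM and Dot1l 158.2 TPM, Setdb1 69.0 TPM and Kmt5a 102.3 TPM, Kdm6a 23.4 TPM and Kdm2b 26.9 TPM, and Kdm8 12.4 TPM and Suv39h1 17.0 TPM.

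The promoters of the members are shown before the values of each gene, since most of them share a feature that the choice of genes did not use. RefSeq promoter windows (250 bases before to 50 after the start, 300 in all, build GRCm38.p6) were at hand for 34 of the 46 members, 46 windows in total. CpG islands are GC-rich promoter stretches that keep the dinucleotide CG, and their strength is often read as the observed over expected number of CG. The median of this ratio was 0.88 in member windows, against 0.75 in those of detected nuclear protein-coding genes and 0.38 in all windows. A ratio above 0.6 was found in 42 of 46 member windows (91.3%), against 68.8% for detected genes and 35.8% for all. The exceptions were the only Setd5 window at hand and 1 alternative window each of Kdm3a, Kdm4c and Kmt5a, where Kdm3a, Kdm4c and Kmt5a had another window above 0.6. The Setd5 window (chr6:113104685-113104984, plus strand) lies inside the gene, which starts at 113077365, so the promoter at that start was not covered. The windows of 4 genes follow in lower case with each CG in capitals: Ezh1 and Ezh2, the PRC2 pair known from resting and from dividing cells, Kdm7a, with 65 CG the most CG-rich member window, and Kdm4d, the member that was not detected. Ezh1 is chr11:101226414-101226713 (minus strand, 23 CG), Ezh2 is chr6:47594981-47595280 (minus strand, 31 CG), Kdm7a is chr6:39206724-39207023 (minus strand, 65 CG) and Kdm4d is chr9:14500433-14500732 (minus strand, 17 CG).
Ezh1: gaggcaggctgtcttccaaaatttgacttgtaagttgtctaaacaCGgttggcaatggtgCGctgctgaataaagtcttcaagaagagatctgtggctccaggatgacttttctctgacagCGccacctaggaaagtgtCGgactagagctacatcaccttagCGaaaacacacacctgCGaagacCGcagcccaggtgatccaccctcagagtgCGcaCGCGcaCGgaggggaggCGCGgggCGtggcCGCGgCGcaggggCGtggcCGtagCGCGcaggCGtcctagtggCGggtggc
Ezh2: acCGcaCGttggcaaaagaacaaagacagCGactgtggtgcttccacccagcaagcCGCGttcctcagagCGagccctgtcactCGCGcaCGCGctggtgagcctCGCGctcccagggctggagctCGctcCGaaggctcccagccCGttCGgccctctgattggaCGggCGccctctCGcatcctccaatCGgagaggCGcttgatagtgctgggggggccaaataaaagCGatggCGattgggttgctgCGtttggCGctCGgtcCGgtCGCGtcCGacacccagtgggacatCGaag
Kdm7a: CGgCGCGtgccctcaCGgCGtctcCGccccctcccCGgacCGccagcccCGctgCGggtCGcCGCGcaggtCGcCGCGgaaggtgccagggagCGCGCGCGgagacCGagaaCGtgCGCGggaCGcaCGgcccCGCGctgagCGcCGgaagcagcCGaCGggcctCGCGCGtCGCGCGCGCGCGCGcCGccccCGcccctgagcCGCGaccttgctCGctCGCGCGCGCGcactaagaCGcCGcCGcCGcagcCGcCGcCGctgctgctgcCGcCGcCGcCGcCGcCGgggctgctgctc
Kdm4d: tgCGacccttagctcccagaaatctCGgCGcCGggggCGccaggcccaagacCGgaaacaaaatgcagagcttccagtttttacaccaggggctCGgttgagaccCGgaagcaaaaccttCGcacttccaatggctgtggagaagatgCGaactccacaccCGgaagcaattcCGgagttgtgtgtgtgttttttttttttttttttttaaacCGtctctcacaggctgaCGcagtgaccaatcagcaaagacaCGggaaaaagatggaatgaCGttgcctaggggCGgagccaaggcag
In the Ezh1 window the CG cluster near the start, whereas in the Kdm7a window they run throughout. The Kdm4d window had a ratio of 0.82, so a CG-rich window was present at a gene with few counts.

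E2F factors, which drive genes of the cell cycle, bind sites such as TTTCCCGC, TTTGGCGC, TTTCGCGC and TTTGCCGC. These 4 words were searched on both strands, and a window was counted once even if matches overlapped. They were found in 3 of the 46 member windows (6.52%), against 3.77% of the windows of detected genes and 2.26% of all. The 3 genes were Ezh2, Kmt5c and Suv39h1, and the match began 3 bases after the start in Ezh2, 105 bases before it in Kmt5c and 64 bases before it in Suv39h1. The Kmt5c window is chr7:4739877-4740176 (plus strand) and the Suv39h1 window with the match is chrX:8074312-8074611 (minus strand). Another Suv39h1 window, chrX:8074711-8075010 (minus strand), held no match. The 30 bases around each match are shown with the word, or its reverse complement, in capitals.
Ezh2: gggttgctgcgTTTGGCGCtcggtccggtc
Kmt5c: ggccagaagagGCGGGAAAaagagagcaat
Suv39h1: ggaaggccggcGCGGCAAAcgtgggggccg
Ezh2 and Suv39h1 were among the lowest members, while Kmt5c had a level near the middle. A match is a string of letters and was not tested as a binding site.

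H3K4 was the residue with the highest summed level of methyltransferases. The enzymes Kmt2a to Kmt2d form the MLL branch of COMPASS, Setd1a and Setd1b its other branch, and Setd7 is a monomethyltransferase that also acts on other proteins. Kmt2a had 130.8, 131.9 and 145.9 TPM in replicates 1, 2 and 3, against 81.9, 77.3 and 74.3 TPM for its closest paralog Kmt2b. Kmt2a was higher in each replicate, by 0.80 ± 0.15 in log2(TPM + 1) (SD, n = 3), the scale of all paralog differences below. Kmt2c, an enhancer monomethyltransferase, had 53.4, 53.8 and 62.2 TPM, against 157.1, 152.4 and 164.2 TPM for Kmt2d, which has the same role. Kmt2c was thus lower by a log2 difference of -1.47 ± 0.08, with no overlap. Kmt2d, on chromosome 15 of GRCm38 from 98831669 to 98871204 on the minus strand, also took the most counts of any member, with 26050, 13384 and 8422 counts over 19887 bp of merged exons.

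The COMPASS pair Setd1b and Setd1a did not differ beyond the spread with merged exons as the length. Setd1b had 36.5, 34.0 and 34.2 TPM and Setd1a 35.4, 36.1 and 30.5 TPM, a difference of 0.04 ± 0.12. The values overlapped, and Setd1a was the higher gene in replicate 2. With the longest transcript as the length, Setd1b was the higher, by 0.41 ± 0.12. The level of Setd1a is uncertain, since 52.3% of its exon bases are shared with 2 other genes, 0.43% of its bases on the opposite strand. Of these genes Gm49388 shared the most bases, and it had 0 counts in each replicate. How reads in shared exons were treated is not given in the sources used here. Setd7 had 56.8 ± 5.06 TPM.

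The H3K4 demethylases were lower in sum. Kdm1a (LSD1), a flavin-dependent oxidase that works with CoREST, had 77.2, 80.9 and 88.5 TPM, against 12.4, 10.6 and 14.5 TPM for Kdm1b (LSD2). Kdm1a was the higher in all replicates, by 2.63 ± 0.16, or 6.57-fold in mean TPM. The JmjC enzymes of the Kdm5 group remove di- and trimethylation. The X-linked Kdm5c had 62.1, 60.7 and 58.3 TPM, against 36.5, 33.7 and 39.5 TPM for Kdm5b, a difference of 0.71 ± 0.14. This order depends on the gene length, with -0.06 ± 0.15 when the longest transcript was taken as the length. Kdm5a had 30.4, 29.1 and 32.1 TPM and lay below Kdm5b in each replicate, by a log2 difference of -0.25 ± 0.04. Over all genes of the residue, the 7 methyltransferases summed to 555.1, 536.4 and 570.6 TPM, against 218.7, 215.1 and 232.8 TPM for the 5 demethylases. The difference of these sums was 1.32 ± 0.03 on the log2 scale of summed TPM, the most even between replicates of the 4 residues with genes on both sides.

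**Figure D2:**
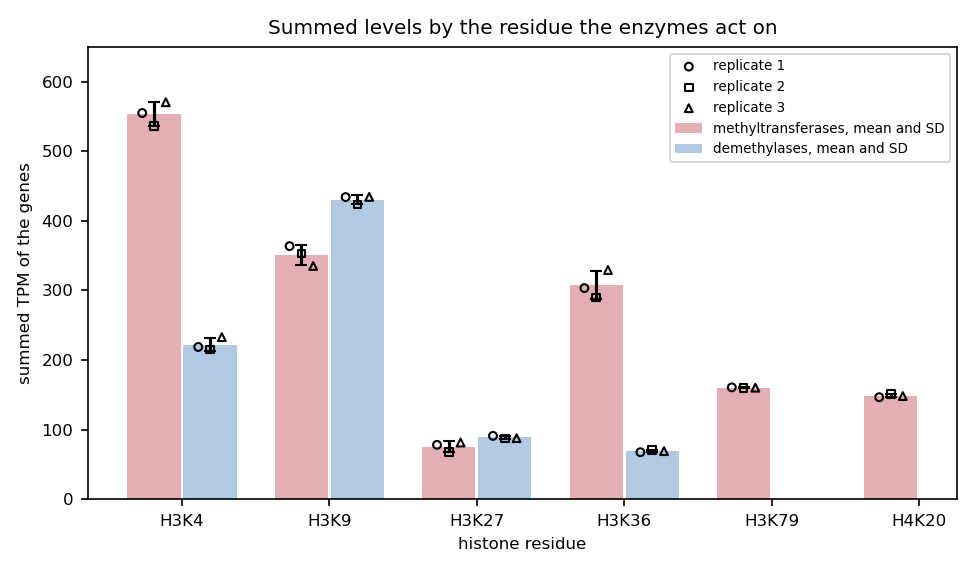
Summed TPM of the methyltransferases (red, left) and demethylases (blue, right) of each histone residue, with bars for the mean, lines for the SD and points for the 3 replicates. H3K4 methyltransferases reach a mean of 554.0 TPM against 222.2 TPM for its demethylases. At H3K9 the demethylases, with Kdm7a counted among them, are higher, at 430.7 TPM, with 350.6 TPM for the methyltransferases. No member demethylase is assigned to H3K79 or H4K20.

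The H3K9 enzymes included the highest member on either side. Ehmt1 and Ehmt2 form the complex that places mono- and dimethylation. Ehmt1 had 47.8, 49.1 and 49.9 TPM, against 213.6, 205.8 and 180.2 TPM for Ehmt2, on chromosome 17 from 34898469 to 34914052 on the plus strand. The values of the pair lay far apart, with a log2 difference of -2.00 ± 0.16 and the same value, -2.01, with the longest transcript. Ehmt2 was lowest in replicate 3, and Ehmt1 varied little. Setdb1, which places trimethylation at retroelements with Trim28, had 74.3, 72.2 and 74.6 TPM, against 5.51, 3.97 and 8.53 TPM for Setdb2. Their difference of 3.47 ± 0.45 was the widest of the 18 paralog pairs, and Setdb2 was the lowest detected member.

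Suv39h1 and Suv39h2, the enzymes that trimethylate H3K9 in constitutive heterochromatin, were both scarce. Suv39h1, on the X chromosome, had 14.2, 13.8 and 11.04 TPM, against 8.27, 8.16 and 10.9 TPM for Suv39h2. In replicate 3 the 2 genes were nearly equal, with log2 differences of 0.71, 0.69 and 0.02 in replicates 1, 2 and 3. The mean difference was 0.47 ± 0.40, and 1.14 with the longest transcript. Some of their exon bases are shared with other genes, 14.6% of Suv39h1 with Gm14820 and 9.98% of Suv39h2 with 2 genes. Of these 2, Dclre1c shared the most bases.

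Among the H3K9 demethylases, Kdm4b led. The Kdm4 enzymes act on trimethylated H3K9 and H3K36. Kdm4b had 175.7, 174.6 and 163.9 TPM, against 37.6, 36.6 and 39.5 TPM for Kdm4c, a difference of 2.15 ± 0.11. Kdm4a had 73.0, 65.4 and 60.7 TPM, above Kdm4c by 0.79 ± 0.17. The order Kdm4b, Kdm4a, Kdm4c and Kdm4d (1.01, 1.504 and 2.44 TPM) held in each replicate. Kdm7a, a PHD and JmjC enzyme of H3K9 and H3K27, had 98.2 ± 10.02 TPM and was counted at H3K9. Kdm3b and Kdm3a, which remove mono- and dimethylation, did not differ beyond the spread with merged exons as the length. Kdm3b had 26.2, 27.9 and 29.2 TPM and Kdm3a 27.1, 26.1 and 29.1 TPM. Their values overlapped, with a difference of 0.02 ± 0.07. With the longest transcript Kdm3b was the higher, by 0.40 ± 0.07, so the tie depends on the gene length. Of the exon bases of Kdm3b, 24.6% are shared with Gm26538 on the opposite strand. The 6 methyltransferases of H3K9 summed to 350.6 ± 14.4 TPM, against 430.7 ± 6.30 TPM for the 7 demethylases. H3K9 was thus a residue with the higher sum on the side of the demethylases, by a log2 difference of -0.30 ± 0.07. This direction rests on counting Kdm7a at H3K9, since without it the demethylase sum lay below the methyltransferase sum in each replicate. With the highest gene of each side alone the direction turned, to 0.22 ± 0.07, since Ehmt2 lay above Kdm4b.

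The PRC2 methyltransferases of H3K27 differed clearly from each other. Ezh1, on chromosome 11 from 101191115 to 101226463 on the minus strand, is the form known from resting cells, and Ezh2, on chromosome 6 from 47530139 to 47595341 on the minus strand, the form known from dividing cells. Ezh1 had 70.5, 59.6 and 70.3 TPM, against 7.45, 7.76 and 10.97 TPM for Ezh2. Ezh1 was 7.66-fold higher in mean TPM, by a log2 difference of 2.82 ± 0.25, and by 2.44 ± 0.27 with the longest transcript. Both windows shown above are CG-rich. The E2F-type word lies in that of Ezh2, but the windows of other low members, Suv39h2, Setdb2, Kdm1b and Kdm4d, held none. A link of the word with the level was not tested. Ezh2 came from 415, 229 and 189 counts and was highest in replicate 3 after scaling.

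The demethylases counted at H3K27 were Kdm6a (UTX), which is X-linked, and Kdm6b (JMJD3), known as a gene induced by signals. Kdm6a had 19.6, 21.1 and 23.9 TPM, against 71.3, 66.2 and 63.7 TPM for Kdm6b, a log2 difference of -1.60 ± 0.22. The 2 genes moved in opposite directions between the replicates, with Kdm6a highest and Kdm6b lowest in replicate 3. The sums of H3K27 were 75.6 ± 7.28 TPM for the methyltransferases and 88.6 ± 2.01 TPM for the demethylases. Their log2 difference of -0.23 ± 0.13 became 0.46 ± 0.13 with the longest transcript. The order of the 2 sides also rests on where Kdm7a is placed. With Kdm7a counted at H3K27 as well, the methyltransferases had 75.6 ± 7.28 TPM and the demethylases 186.8 ± 9.57 TPM, a log2 difference of -1.31 ± 0.09, and it stayed below 0, at -0.55 ± 0.09, with the longest transcript.

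The H3K36 methyltransferases were more even. Nsd1, Nsd2 and Nsd3 place dimethylation, as does Ash1l, and Setd2 is the enzyme of trimethylation in transcribed genes. Nsd1 had 83.1, 77.5 and 89.1 TPM, against 39.0, 37.2 and 42.1 TPM for Nsd2. Nsd3 had 50.4, 49.2 and 56.7 TPM, between the other two in all replicates. Nsd1 was above Nsd2 by 1.06 ± 0.02 and Nsd3 above Nsd2 by 0.39 ± 0.03, and these became 0.41 ± 0.02 and 0.00 ± 0.03 with the longest transcript. Ash1l had 75.3 ± 1.47 TPM and Setd2 57.5 ± 6.65 TPM.

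On the side of removal, the CXXC and JmjC enzyme Kdm2a had 51.0, 53.6 and 52.0 TPM, against 16.4, 16.6 and 16.9 TPM for Kdm2b, a difference of 1.59 ± 0.04. The 5 methyltransferases of H3K36 summed to 307.6 ± 20.02 TPM, against 68.9 ± 1.42 TPM for the 2 demethylases, a log2 difference of 2.16 ± 0.11. This difference rests on where the Kdm4 enzymes are placed, and it was -0.17 ± 0.13 when Kdm4a, Kdm4b and Kdm4c were counted at H3K36 as well.

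Dot1l, the H3K79 methyltransferase and a member without a SET domain, had nearly constant levels of 160.6, 160.2 and 160.2 TPM. It ranked behind Ehmt2 and Kdm4b, but ahead of Kdm4b with the longest transcript, and no member demethylase was assigned to this residue. The H4K20 methyltransferases summed to 148.6 ± 2.36 TPM. Kmt5a, the monomethyltransferase, had 68.4 ± 0.22 TPM. Kmt5b had 35.8, 35.7 and 39.0 TPM and Kmt5c 42.4, 47.1 and 40.5 TPM, both enzymes of di- and trimethylation. Kmt5b was lower without overlap, by a log2 difference of -0.23 ± 0.17, but the order was the reverse with the longest transcript, at 0.44 ± 0.17.

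The members with no established histone activity were not minor in level. Kmt2e (MLL5) had 124.2 ± 11.97 TPM, and 9.31% of its exon bases are shared with Srpk2, itself at 8111 counts in replicate 1. Setd3, which methylates a histidine of actin, had 91.5 ± 5.26 TPM, Setd6, which methylates RelA, had 58.7 ± 4.46 TPM, Setd5 had 58.0 ± 5.64 TPM and Setd4 had 37.4 ± 1.65 TPM. Kdm8 (JMJD5) had 16.1 ± 1.34 TPM. The 5 SET domain genes summed to 357.7, 356.6 and 395.1 TPM, against 363.7, 353.1 and 335.1 TPM for the 6 H3K9 methyltransferases. The sums overlapped between the replicates.

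Across the 18 paralog pairs, the replicate values of 16 did not overlap, and those of Setd1b and Setd1a and of Kdm3b and Kdm3a did. An exact sign permutation test over the 3 replicates (two-sided) gave p = 0.25 for the 16 and p = 0.75 for the other 2. With 3 replicates 0.25 is the smallest value this test can give, so none could pass a threshold of 0.05 and the spread between replicates is the measure of error here. The number of pairs without overlap was 13 with TPM over all genes and 16 with the longest transcript. The share among pairs of unrelated genes was not determined, so the number describes these pairs only.

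**Figure D3:**
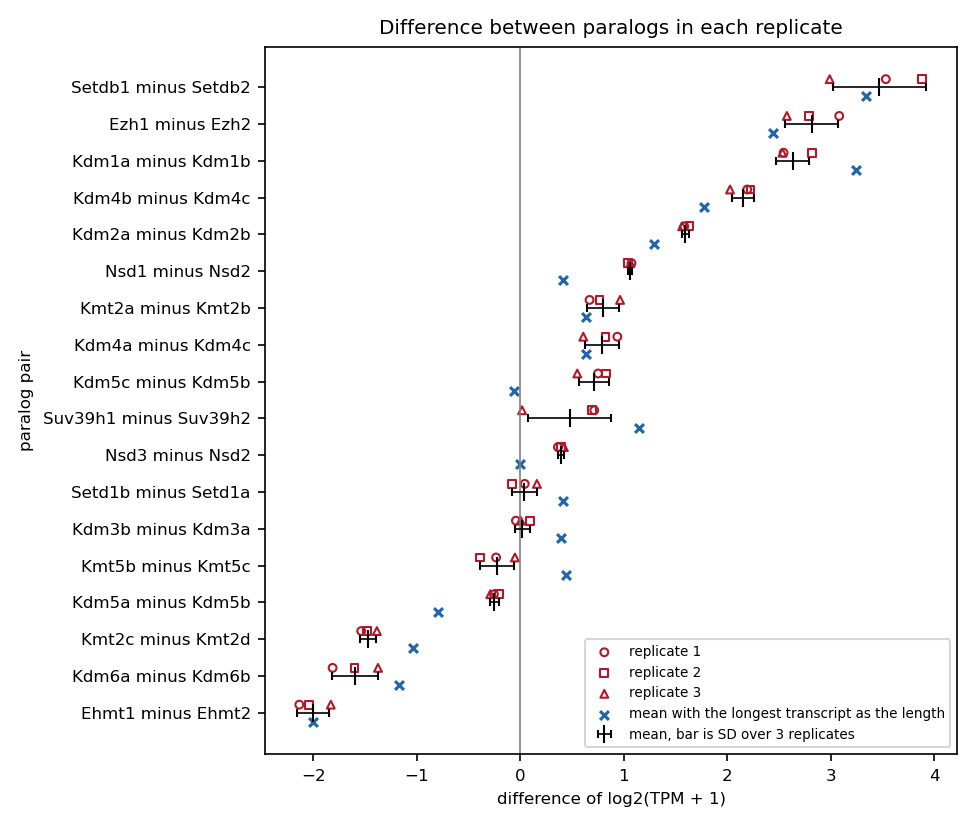
Difference of log2(TPM + 1) between the paralogs of 18 pairs, with open symbols for the 3 replicates, black marks for the mean with its SD, and blue crosses for the mean when the longest transcript was taken as the length. Setdb1 minus Setdb2 (3.47) and Ezh1 minus Ezh2 (2.82) lie highest and Ehmt1 minus Ehmt2 (-2.00) lowest; the cross lies on the other side of 0 for Kmt5b minus Kmt5c and Kdm5c minus Kdm5b.

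As a class, the 29 methyltransferases and SET domain genes had a median of 56.9 ± 4.58 TPM, against 36.6 ± 2.87 TPM for the 17 demethylases and JmjC genes. The medians differed by 0.57, 0.66 and 0.64 on the log2 scale in replicates 1, 2 and 3 (mean 0.62 ± 0.05, exact sign permutation p = 0.25). The direction was the same in all 3 replicates. Without the genes of no established histone activity the difference was 0.56 ± 0.04.

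The members were long genes, and the choice of length moved most levels beyond the spread between replicates. With the longest transcript, Kmt5b had 65.5 TPM in place of 36.9 TPM and Ezh2 16.1 TPM in place of 8.73 TPM. The median length of merged exons was 8171 bp, against 4522 bp for detected nuclear protein-coding genes, and 27 of 46 members exceeded the 75th percentile of those genes (6937 bp). Levels and lengths were only weakly related, with a Spearman rho of 0.22 across the 46 genes, which share their libraries. Merged exons sum all annotated transcripts of a gene and exceeded the longest transcript by a median of 1.36-fold in members and 1.22-fold in detected genes. With the longest transcript as the length, the order changed little as a whole (rho 0.93), while Kmt2d moved to rank 6 from rank 4, Kmt2a to rank 9 from rank 5, and Setd5 had 121.5 TPM in place of 58.0 TPM and moved to rank 7 from rank 20. Its merged exons measure 18347 bp.

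**Figure D4:**
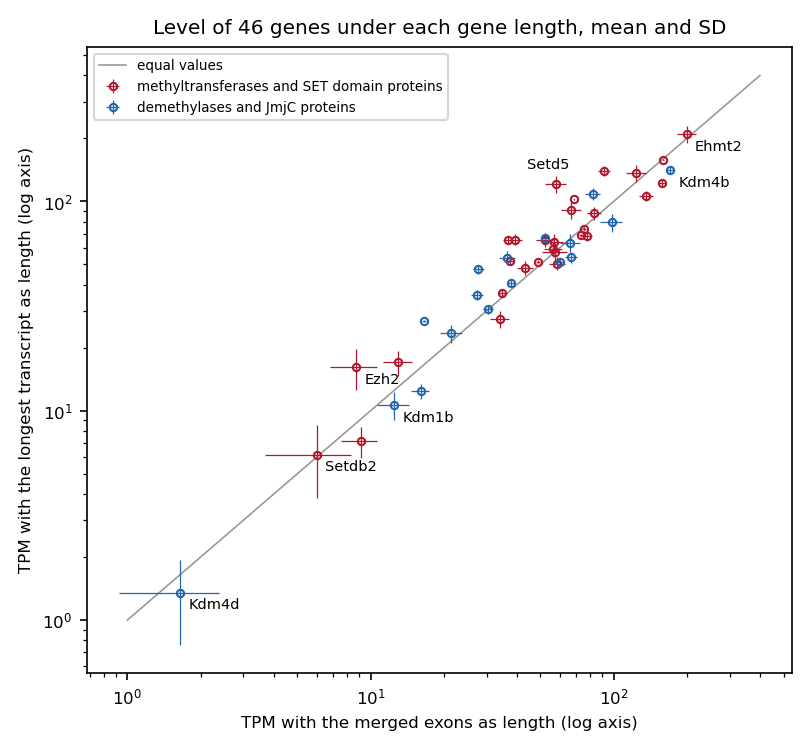
Mean TPM of the 46 genes with the merged exons as length (horizontal, log axis) and with the longest transcript as length (vertical, log axis), with lines for the SD over 3 replicates. Genes lie on both sides of the line of equal values. Setd5 lies furthest above it, at 121.5 TPM with the longest transcript and 58.0 TPM with merged exons, and Ehmt2 is highest on both axes.

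The members varied little between the replicates. After scaling by size factors, the detected members had a median coefficient of variation (CV) of 6.04%, against 8.75% for all detected nuclear protein-coding genes, and 36 of 45 lay under 10%. Without replicate 3 the median of the members was 3.70%. The highest CV among detected members were 35.2% for Setdb2, 18.3% for Ezh2 and 16.7% for Suv39h1. Counting error alone gives 10.1% for Setdb2, 6.34% for Ezh2 and 6.16% for Suv39h1. Setdb2 had 186, 71 and 89 counts, which after scaling put replicate 3 highest and replicate 2 lowest. These 3 genes had 189 counts or fewer in replicate 3. The 7 detected members with under 300 counts in that library had a median CV of 13.2%, against 13.7% for all such genes, while the 38 members with more counts had 5.07%, against 7.09%.

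The deviation of replicate 3 went with the GC content of the transcripts. Of the 45 detected members, 17 (37.8%) had their highest scaled count in replicate 3, against 30.6% of detected nuclear protein-coding genes, a share near that background. Which members these were went with base composition. Ehmt2, with 60.8% GC in its longest transcript the most GC-rich member, had a log2 deviation of -0.31 in replicate 3 from the mean of replicates 1 and 2. Kdm7a, with 39.6% GC the least GC-rich, had a deviation of 0.16. Of the 21 detected members above the median GC content of detected genes (49.7%), 16 were lower in replicate 3, and of the 24 at or below it, 5 were. Over all detected genes, 74.0% of those above that median and 41.7% of those at or below it were lower in replicate 3. Spearman's rho between GC content and the deviation was -0.76 over the 45 members and -0.40 over 12465 detected genes. The same measure over the members was 0.69 for replicate 2 and 0.38 for replicate 1, and 0.24 and 0.26 over all detected genes, each replicate set against the mean of the others. The 3 deviations are not independent, and these genes share the same 3 libraries, so the rho describes those libraries.

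**Figure D5:**
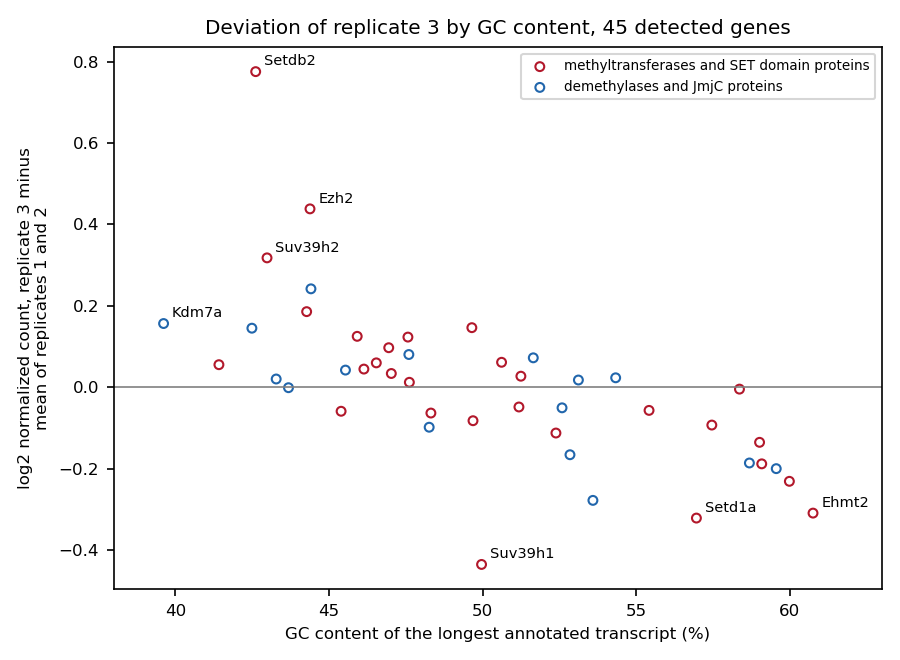
GC content of the longest transcript (horizontal, percent) and the log2 scaled count of replicate 3 minus the mean of replicates 1 and 2 (vertical) for the 45 detected genes, in red for methyltransferases and SET domain genes and blue for demethylases and JmjC genes. GC-rich genes such as Ehmt2 (60.8% GC, -0.31) lie below 0, while genes of low GC content such as Setdb2 (42.6% GC, 0.78) and Ezh2 (44.4% GC, 0.44) lie above; Suv39h1 (49.97% GC, -0.44) is the lowest.

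Some paralogs of unequal GC content shifted against each other in replicate 3. Suv39h1 (49.97% GC) deviated by -0.44 and Suv39h2 (43.0% GC) by 0.32, the replicate in which the pair was nearly equal. Kdm6a (42.5% GC) deviated by 0.14 and Kdm6b (59.6% GC) by -0.20. Other pairs did not move in opposite directions, such as Kdm1a (51.7% GC) at 0.07 and Kdm1b (44.4% GC) at 0.24 in replicate 3. The number of pairs of each kind was not counted. Markers of other cells also differed in this replicate, with summed endothelial markers at 7.69, 15.0 and 64.4 TPM, microglial markers at 37.5, 47.0 and 53.8 TPM and astrocyte markers at 259.8, 162.4 and 327.0 TPM in replicates 1, 2 and 3. Oligodendrocyte markers did not share the pattern, at 821.3, 904.5 and 810.5 TPM. The part of GC content, depth and other cells in these deviations was not tested. Without replicate 3, Ezh1 minus Ezh2, Setdb1 minus Setdb2 and Suv39h1 minus Suv39h2 kept their direction, each being above 0 in replicates 1 and 2.

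The partners of these enzymes were also expressed. All 4 genes of the core that COMPASS enzymes share were detected, with a list median of 56.2 ± 2.69 TPM, from 88.5 TPM for Rbbp5 to 31.6 TPM for Ash2l. Of 9 further COMPASS partners 8 were detected (median 95.2 ± 2.90 TPM). Psip1, which tethers Kmt2a and menin to chromatin, was highest at 260.4 ± 28.4 TPM, and Pagr1a was not detected, with 1, 4 and 0 counts. Of 9 PRC2 subunits 8 were detected (median 50.01 ± 1.96 TPM), with Rbbp7, a histone chaperone, at 228.2 ± 13.7 TPM. The core subunits Eed (26.1 ± 4.31 TPM) and Suz12 (55.5 ± 7.74 TPM) both lay above Ezh2 and below Ezh1 in each replicate, and Phf19 was not detected with 21, 15 and 8 counts.

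All 8 H3K9 partners and readers were detected (median 49.8 ± 2.96 TPM), from 175.1 TPM for Trim28, the corepressor that brings in Setdb1, to 18.6 TPM for Cbx3, a heterochromatin protein. All 10 LSD1-CoREST subunits were detected (median 56.2 ± 1.79 TPM), from 131.3 TPM for the deacetylase Hdac2 to 19.1 TPM for the scaffold Rcor3. Kdm1a, the catalytic subunit, had a mean of 82.2 TPM. The 4 DOT1L partners had a median of 70.3 ± 3.68 TPM, from 133.5 TPM for Mllt6 to 22.7 TPM for Mllt3, all below Dot1l. All 8 other JmjC proteins were detected at lower levels (median 29.5 ± 1.31 TPM), from 53.5 TPM for Phf2 to 7.84 TPM for Hspbap1. Of 10 other SET and PRDM genes 8 were detected (median 15.8 ± 1.15 TPM), with Prdm2 highest at 70.0 TPM. Smyd1, a muscle gene, had 12, 1 and 0 counts and Mecom 6, 5 and 3 counts, and neither was detected. Prdm9, a gene of meiosis, passed the threshold with 142, 101 and 101 counts.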

How the data were processed

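The authors deposited raw counts per gene from 3 FACS RNA-Seq libraries, with the merged exon length of each gene. Per the labels and the study's methods, poly(A) RNA was prepared with TruSeq and sequenced as 150 bp paired-end reads. The submitters' processing notes name STAR, featureCounts, mm10 and GRCm38 without versions. Strand, fragment counting, multimapping and the annotation release are not given in the sources used here. Of 52636 gene IDs, 52489 were named by GENCODE vM21. TPM was computed from the deposited counts over nuclear protein-coding genes, because Gm23935, a feature of 57 bp, held 32.7% to 48.3% of TPM over all genes. Genes were called detected from a CPM of 1 upwards in every library, and log2 values used a pseudocount of 1. Scaled counts used median-of-ratios size factors. Shared exon bases came from the exon coordinates in the deposited table, and transcript lengths and GC content from vM21. Promoters came from RefSeq. The counting CV covers counting error only. The replicates are biological, each a pool of mice.

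The members and gene lists were chosen with earlier results of these data known. All members are named, with replicate values for paralog pairs, the 5 highest, the one not detected and the 3 of largest CV, and partners are named where highest, lowest or not detected. Eed, Suz12 and Prdm9 were named after their values were seen. Alternatives were the genes in the TPM, the length, the pseudocount, the detection threshold, TMM scaling, the highest gene of a residue, genes without established activity and leaving out each replicate. The placement of Kdm4 genes at H3K36 and of Kdm7a at H3K27 and the alternatives for single levels were added after the data were seen. So were the H3K9 comparison without Kdm7a and the comparison with GC content. The steps ran in R 4.3.3 with edgeR 4.0.16 (TMM only) and in Python 3.11.15 with pandas 2.3.3, numpy 2.4.6, matplotlib 3.10.9 and scipy 1.17.1, and were tested on simulated data. No library was left out, and the number of unused sample columns was 0.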

Additional observations from a re-analysis of the deposited data

How the results depend on the processing

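Of 403 alternatives to 74 results, 282 stayed within a set bound, 114 moved beyond it and 7 reversed, and the cause was not tested. The bound was the SD between replicates for most results. For counts of members or of pairs it was a fixed fold range. For the median CV it was the SD of the values with each replicate left out. With the longest transcript as the length, the median of the members was 57.8 TPM, their percentile 64.7, the class difference 0.46, and the residue differences 0.93 (H3K4), -0.18 (H3K9), 0.46 (H3K27, reversed) and 1.90 (H3K36), and Kmt5b minus Kmt5c (0.44) and Kdm5c minus Kdm5b (-0.059) reversed. With the highest gene of each side alone, the residue differences were 0.94, 0.22 (reversed), -0.0075 and 0.67 in the same order, and H3K36 was -0.17 with Kdm4a, Kdm4b and Kdm4c added. With Kdm7a added, H3K27 was -1.31, and -0.55 with the longest transcript as well. The median was 16.9 TPM over all genes, the percentile 78.9 among all nuclear protein-coding genes, and the class difference 0.56 with established activity only. Leaving out each replicate gave a median CV of 3.70% to 6.39%, Setd1b minus Setd1a of -0.0209 to 0.101 and Kdm3b minus Kdm3a of -0.0204 to 0.049. Members detected were 44 to 46 under the thresholds tried. No paired analysis between groups was possible because there is 1 group, and differences between genes were taken within each library. Depth limits the members with few counts: Kdm4d had 24, 19 and 18 counts. With 3 replicates, no exact test could give a p under 0.25, and a replicate far from the others could not be tested as an outlier.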
